A study of Mus musculus with 24 samples.

Results

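Mouse retinal endothelial cells that lack frizzled-4 (Fz4-/-) were compared with wild type cells after both had spent 6 hours on Matrigel, an extract of basement membrane on which endothelial cells migrate and form cords. The comparison was defined by the sample titles and holds 6 of the 24 arrays of the series, 3 of Fz4-/- and 3 of wild type cells. All 18193 genes with a named probe set were examined, each through its probe set with the highest mean. The Fz4-/- and wild type lines were both isolated by immunopurification from adult animals of mixed gender on a C57Bl6/129 mixed background. Both carry the Immorto-mouse transgene, in which a promoter of the H2Kb gene that responds to interferon gamma drives a temperature-sensitive SV40 large T antigen. Both lines were expanded on gelatin at 33 °C, and RNA was made from cells kept at 37 °C without interferon gamma. For the Matrigel arrays, both lines were held for 24 hours in 1% serum before plating and stayed in 1% serum for the 6 hours on the extract. Arrays of Fz4-/- and wild type cells grown on gelatin, 3 each, entered the same fit and served to ask whether the genotype difference depended on the substrate. The labels do not say how many lines or isolates stand behind each genotype, so loss of frizzled-4 and any other difference between the lines, including mixed-background alleles, cannot be told apart.

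Frizzled-4 is a cell surface receptor of the Wnt family. In the retina its ligand is Norrin, which acts through frizzled-4, the co-receptor Lrp5 and the tetraspanin Tspan12 to stabilise beta-catenin, and the pathway is needed for growth of the deeper retinal vessels and for the blood-retina barrier. No Norrin-producing cells were added on Matrigel, so the comparison describes how the lines differ without added ligand.

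The arrays report log2 intensities, so a difference of 1 is a 2-fold change. The 6 Matrigel arrays had medians of 5.05 to 5.1 over probe sets, and a mean below 3.4, their 25th percentile over probe sets, is called low here. Within each genotype, replicates 2 and 3 were closer to each other, with a standard deviation (SD) of gene differences of 0.175 in Fz4-/- and 0.17 in wild type, than either was to replicate 1 (0.328 to 0.354). Separate cultures are not stated for the replicates, and the p-values reflect the spread among these arrays alone, which may be technical. The endothelial adhesion genes Cdh5 (11.08 ± 0.17 in Fz4-/- and 11.07 ± 0.08 in wild type, SD, n = 3) and Pecam1 (11.86 ± 0.04 and 11.56 ± 0.17) were high in both lines. Vwf, another endothelial marker, was chosen after its values were seen and lay between 3.00 and 3.49 on all 6 arrays, near or below the low level. Xist was at 11.20 to 11.65 in Fz4-/- and 11.19 to 11.27 in wild type. The Y-linked genes measured lay between 2.27 and 3.02, below the low level in both lines, although the source animals were of mixed gender.

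The targeted gene was read first. Fzd4 lay at 5.19, 4.67 and 4.80 log2 on the Fz4-/- arrays, against 8.66, 8.56 and 8.67 on the wild type arrays, and the groups did not overlap. Its difference was -3.74 ± 0.22 (standard error, SE, of limma, here and below, with n = 3 arrays in each group), 13.4-fold lower in Fz4-/- (adjusted p = 5.94e-07). The other Fzd4 probe sets were lower by -2.80 and -1.52. Where the deletion lies within Fzd4 is not stated, and a probe set outside it would not show the loss. Of the 3 named genes nearest on either side of Fzd4, Ctsc, a lysosomal protease, fell by 2.47 ± 0.31 (adjusted p = 0.000226). Tmem135 (0.08 ± 0.08), Rab38 (-0.12 ± 0.11), Prss23 (1.18 ± 0.42), Me3 (0.69 ± 0.23) and Ccdc81 (0.04 ± 0.10) did not pass the test. The other Ctsc probe sets differed by -0.41 and -0.09.

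Across all genes, 2854 passed an adjusted p below 0.05, which is 15.7% of those tested. Of these, 1258 were higher in Fz4-/- (6.91%) and 1596 lower (8.77%), and the median difference over all genes was 0.02. Most differences were small. At least 2-fold changes numbered 791 (4.35%), 243 higher and 548 lower. At least 4-fold changes numbered 184, with 66 higher and 118 lower, and at least 16-fold changes 18, with 8 higher and 10 lower. In 5947 genes (32.7%) the 3 arrays of one genotype did not overlap those of the other. The share of calls that were higher was 44.1% with the deposited scale, 51.7% after another quantile normalization and 68.6% when each array was centred on its median, which moved the median of all genes by 0.12. With the replicate number as a block, 4379 genes passed, 2013 higher and 2366 lower, and all 2854 were among them.

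**Figure D1:**
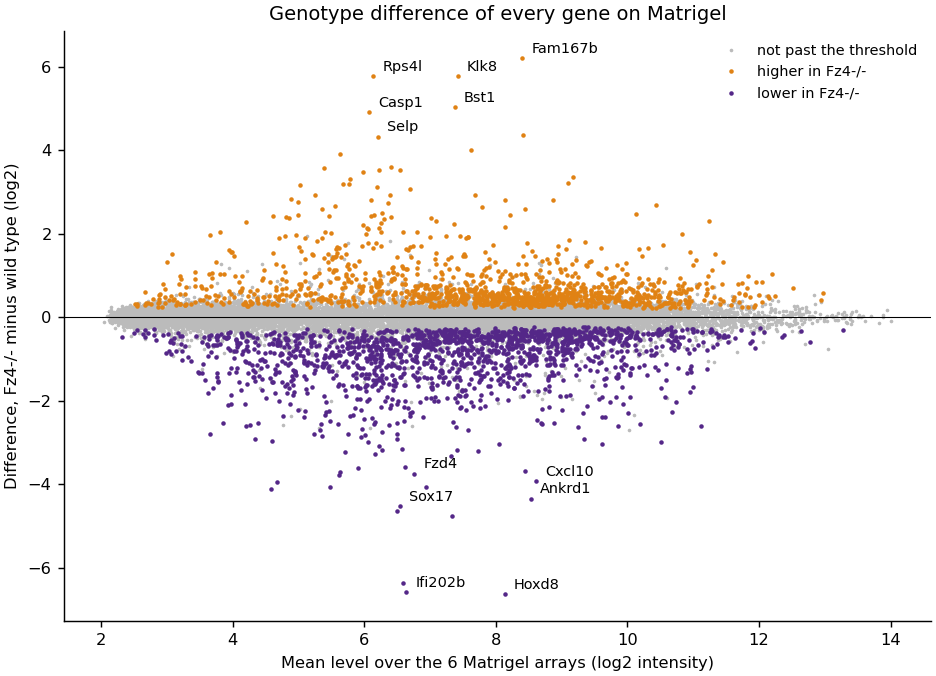
Difference between Fz4-/- and wild type cells on Matrigel (vertical axis, log2) against the mean level over the 6 arrays (horizontal axis, log2 intensity), with a point for each of the 18193 genes. Of the 2854 coloured genes, 1258 are higher and 1596 lower in Fz4-/-, and the labelled genes lie at differences of up to 6.21 and down to -6.62.

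The largest falls included transcription factors, interferon-inducible genes and a target of mechanical signalling. Hoxd8, a homeobox transcription factor, lay at 4.89, 5.08 and 4.52 log2 in Fz4-/-, against 11.61, 11.24 and 11.48 in wild type. It fell by 6.62 ± 0.17 (98.1-fold, adjusted p = 1.45e-09), and its other probe set by 6.45. Hoxd3os1, a non-coding transcript of the same gene cluster, lay at 3.31, 3.31 and 3.61 in Fz4-/-, against 9.12, 10.03 and 10.13 in wild type. It fell by 6.35 ± 0.21, while its other probe set differed by -1.37. The groups of both genes were far apart.

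Ifi202b, a nucleic acid binding protein of the interferon-inducible Ifi200 family, lay at 3.54, 3.39 and 3.13 in Fz4-/-, against 9.33, 10.32 and 10.15 in wild type. The fall of 6.58 ± 0.29 started from a low mean of 3.35 in Fz4-/-, so its direction is surer than its size. Sox17, a SoxF transcription factor of endothelium, lay at 4.05, 4.52 and 4.28 in Fz4-/-, against 8.50, 9.06 and 8.85 in wild type. Its arrays did not overlap, and it fell by 4.52 ± 0.18 (adjusted p = 2.28e-08), with its other probe set lower by -6.00. Ankrd1, a transcriptional cofactor induced through YAP and TAZ, lay at 6.11, 6.71 and 6.27 in Fz4-/-, against 11.31, 10.75 and 10.06 in wild type, and fell by 4.34 ± 0.26. Its wild type arrays were spread more widely than its Fz4-/- arrays but remained above them.

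Cbln1, a secreted protein best known as a synapse organiser, fell by 4.63 ± 0.45 and Stox2, a winged-helix transcription factor, by 4.76 ± 0.24. Hoxd9 (-4.05 ± 0.19), the transcriptional cofactor Vgll3 (-3.94 ± 0.21) and the zinc finger gene Zfp979 (-4.10 ± 0.21) also fell. The Fz4-/- means of Vgll3 (2.71) and Zfp979 (2.53) were low, so their sizes are uncertain. The chemokine Cxcl10 (-3.92 ± 0.89) and Ang, a secreted ribonuclease (-3.69 ± 0.14), completed this group with Trim14 (-4.05 ± 0.34) and Evi2a (-3.78 ± 0.14). The falls of Trim14, an adaptor of antiviral signalling, and of Evi2a rest on a single probe set each, since the other probe set differed by -0.09 for Trim14 and -0.26 for Evi2a. For Ang and Stox2 the other probe sets ran from -2.49 to -0.04 and from -3.52 to -0.30.

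The largest rises included a protease, a ribosomal protein gene and genes of innate immunity and leukocyte adhesion. Fam167b lay at 11.87, 11.31 and 11.34 log2 in Fz4-/-, against 5.12, 5.23 and 5.55 in wild type. It rose by 6.21 ± 0.19 (73.9-fold, adjusted p = 3.97e-09). Rps4l, a ribosomal protein S4 related gene, lay at 9.45, 8.78 and 8.85 in Fz4-/-, against 3.37, 3.49 and 2.89 in wild type, where its mean was low. It rose by 5.78 ± 0.26, and the groups were far apart. Klk8, a secreted serine protease of the kallikrein family, lay at 11.19, 9.93 and 9.79 in Fz4-/-, against 4.02, 4.98 and 4.62 in wild type, and rose by 5.77 ± 0.33.

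Genes of cell death and innate immunity were among the rises. Casp1, the inflammatory caspase that matures interleukin-1 beta, lay at 8.73, 8.44 and 8.44 in Fz4-/-, against 3.79, 3.61 and 3.46 in wild type. It rose by 4.92 ± 0.21 (30.2-fold, adjusted p = 3.73e-08) with no overlap. Ripk3, a kinase of necroptosis, rose by 3.47 ± 0.17 and Gbp2b, a guanylate-binding GTPase, by 3.53 ± 0.41. Slfn4, a Schlafen family gene, lay at 10.48, 10.62 and 10.70 in Fz4-/-, against 4.97, 6.93 and 6.79 in wild type, and rose by 4.37 ± 0.52. Wild type replicate 1 was the lowest wild type array for Slfn4 and Gbp2b, and the Fz4-/- arrays stayed above all wild type arrays of both.

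Selp, which encodes the leukocyte adhesion receptor P-selectin, lay at 8.19, 8.48 and 8.46 in Fz4-/-, against 4.21, 3.73 and 4.20 in wild type. It rose by 4.33 ± 0.15 (20.1-fold), and its other probe sets by 1.72 and 2.33. Bst1, a surface enzyme that makes cyclic ADP-ribose, rose by 5.03 ± 0.59, and Clca3a1, a chloride channel accessory protein of endothelium, by 3.36 ± 0.09. Thy1, a surface glycoprotein (3.91 ± 0.22), the homeobox factor Meox1 (3.59 ± 0.40) and the adhesion receptor Adgrg3 (3.52 ± 0.18) also rose. Gdpd3, a phosphodiesterase of lysophospholipids, rose by 4.01 ± 0.20. Slc15a2, a peptide transporter, rose by 3.57 ± 0.33 with its leading probe set, and its other probe sets differed by 0.12 and 0.13.

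**Figure D2:**
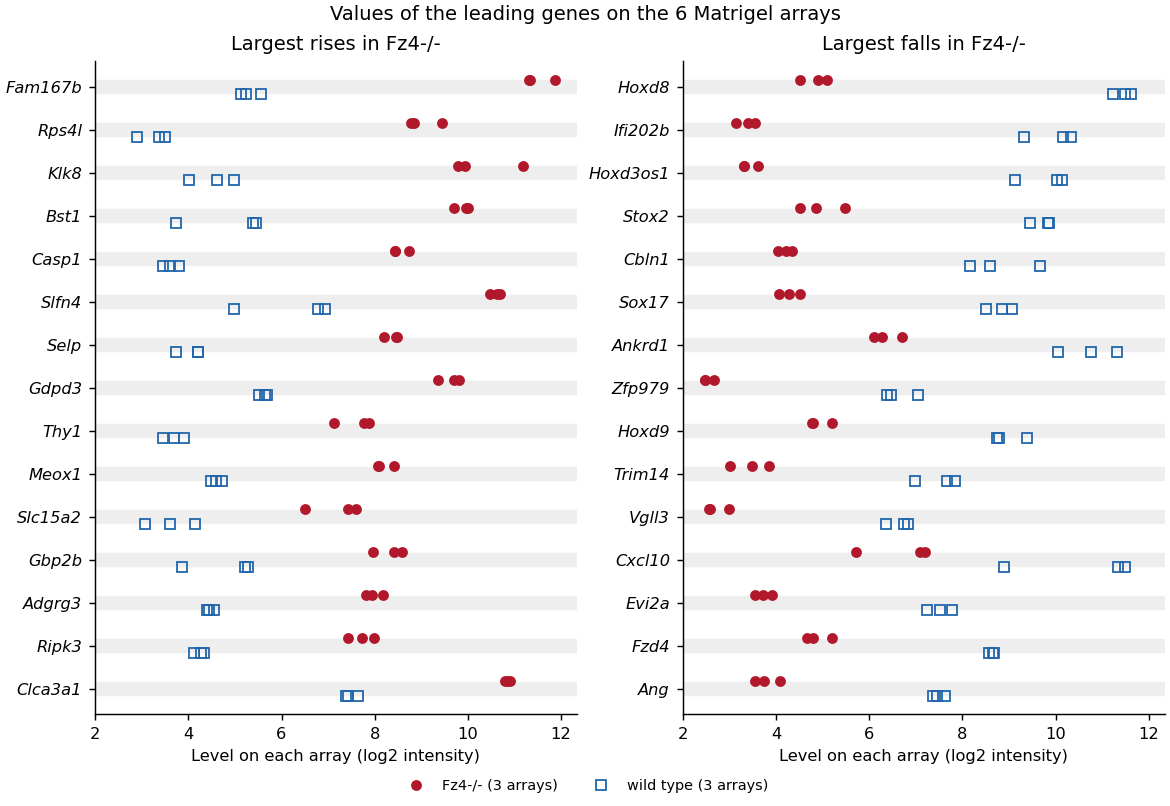
Log2 level on each of the 6 Matrigel arrays for the 15 largest rises (left panel) and the 15 largest falls (right panel), with filled circles for the 3 Fz4-/- arrays and open squares for the 3 wild type arrays. No gene shown has overlapping groups, and the largest differences are 6.21 for Fam167b in the left panel and -6.62 for Hoxd8 in the right panel.

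Interferon response genes were lower in Fz4-/- as a group. These genes are induced by interferons, often through the interferon-stimulated response element (ISRE) in their promoters, and many of their products restrict viruses. Of 35 measured, 29 fell (against 8.77% of all genes), 0 rose and 6 did not pass, with a median of -2.03 against 0.02 over all genes. With replicates 2 and 3 averaged into 1 sample, 7 fell, and without single Matrigel arrays 22 to 33 fell. The sequences of the 3 members with the largest falls whose promoters hold an ISRE are shown, 250 bases up to the first listed start, 5′ to 3′ on the gene's strand, from RefSeq on build GRCm38.p6, with the element in capitals.
Cxcl10 (chr5:92348890-92349139, minus strand): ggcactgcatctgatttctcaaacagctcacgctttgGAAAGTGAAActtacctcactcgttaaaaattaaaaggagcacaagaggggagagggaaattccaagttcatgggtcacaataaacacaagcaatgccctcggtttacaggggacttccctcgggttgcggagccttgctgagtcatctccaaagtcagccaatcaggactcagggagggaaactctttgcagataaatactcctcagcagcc
Ifit3 (chr19:34583279-34583528, plus strand): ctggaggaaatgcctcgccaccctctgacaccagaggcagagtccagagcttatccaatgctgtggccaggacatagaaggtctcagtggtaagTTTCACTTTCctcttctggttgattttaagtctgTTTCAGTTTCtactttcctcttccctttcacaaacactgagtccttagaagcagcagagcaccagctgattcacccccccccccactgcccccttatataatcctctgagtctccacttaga
Ifit1 (chr19:34640639-34640888, plus strand): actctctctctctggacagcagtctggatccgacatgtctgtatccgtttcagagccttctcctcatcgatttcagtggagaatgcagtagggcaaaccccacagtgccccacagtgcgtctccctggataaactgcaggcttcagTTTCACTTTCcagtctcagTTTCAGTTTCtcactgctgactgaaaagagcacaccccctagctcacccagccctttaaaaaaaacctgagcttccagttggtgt

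The element searched was GAAANNGAAA on either strand. It was found in 13 of the 25 list members with a RefSeq promoter (52.0%), against 379 of 14368 promoters of all measured genes (2.64%). Ifit3 and Ifit1 hold a pair each, the nearer one 122 to 113 bases before the start in Ifit3 and 85 to 76 bases before it in Ifit1. In Cxcl10 the element lies 213 to 204 bases before the start. A match describes these letters only and does not show that a factor binds there.

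Cxcl10, a chemokine that attracts T cells, lay at 5.71, 7.19 and 7.08 log2 in Fz4-/-, against 8.89, 11.50 and 11.33 in wild type, and fell by 3.92 ± 0.89 (adjusted p = 0.0113). Its call was lost without wild type replicate 2 (-3.46) or 3 (-3.54), with adjusted p = 0.0524 and 0.0502. Ifit3, a cytoplasmic antiviral protein, lay at 8.13, 9.47 and 9.47 in Fz4-/-, against 11.20, 12.45 and 12.38 in wild type. Replicate 1 was the lowest array of both genotypes for Cxcl10 and Ifit3, and the groups still did not overlap. Ifit3 fell by 2.99 ± 0.57 (7.95-fold, adjusted p = 0.00424), and its differences within replicate numbers 1, 2 and 3 were -3.07, -2.98 and -2.92.

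Ifit1, which binds viral RNA, lay at 7.30, 8.18 and 8.16 in Fz4-/-, against 9.89, 11.31 and 11.20 in wild type, and fell by 2.92 ± 0.50. Isg20, an exonuclease, fell by 3.19 ± 0.71, and Dhx58, a helicase of RNA sensing, by 2.69 ± 0.46. Irf7, a master factor of the response, lay at 7.2, 9.43 and 9.41 in Fz4-/-, against 9.96, 12.03 and 12.15 in wild type. Its difference of -2.70 ± 0.86 did not pass (adjusted p = 0.0555), although each Fz4-/- array lay below every wild type array. Averaged over the list, the level was 7.44, 8.12 and 8.12 in Fz4-/-, against 9.09, 10.34 and 10.34 in wild type. Within replicate numbers the median member differed by -1.74, -2.16 and -2.17, so the list was lower at each number, though the labels do not pair the arrays.

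Other parts of the same pathway had fewer members past the threshold. Of 21 ligands, receptors and sensors of interferon signalling, 4 rose and 3 fell, with a median of 0.01. Tlr3, a sensor of double-stranded RNA, fell by 1.42 ± 0.24, while the feedback inhibitor Socs3 rose by 0.74 ± 0.16 and the factor Irf8 by 0.49 ± 0.11. Counts for this list came to 2 rises and 1 fall without wild type replicate 2, to 3 rises and 1 fall without Fz4-/- replicate 1, and to 2 rises and 2 falls without Fz4-/- replicate 2 or 3. Among 16 antigen processing genes, 2 fell and 14 did not pass (median -0.25), where 15.7% of all genes passed, and 13 had a difference below 0. Nlrc5, a regulator of class I genes, fell by 1.18 ± 0.18, whereas the class I light chain B2m differed by -0.09 ± 0.07. With the replicate number as a block, 1 antigen processing gene rose and 8 fell, and without wild type replicate 2 or 3 there was 1 fall. The Ifi200 genes and inflammatory caspases were split, with 2 rises and 3 falls among 12 measured. Casp1 and the DNA sensor Aim2 (0.86 ± 0.19) rose, and Ifi202b and Ifi204 (-1.62 ± 0.35) fell, as did the cytokine Il18 (-1.23 ± 0.35), whose call was lost without any single Fz4-/- Matrigel array, wild type Matrigel replicate 2 or 3, or Fz4-/- gelatin replicate 2, at values of -1.29 to -1.04.

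Genes of DNA replication and mitosis were lower in every Fz4-/- array than in every wild type array for most members, with Fz4-/- replicate 1 far below the rest. Of 32 measured mitosis genes, 20 fell (against 8.77% of all genes), 0 rose and 12 did not pass, with a median of -1.65. Of 32 replication genes, 18 fell, 0 rose and 14 did not pass, with a median of -0.95. The 3 arrays of each genotype did not overlap for all 32 mitosis genes and 31 of the replication genes, against 32.7% of all genes. Cell number and RNA per cell cannot be told apart in bulk RNA, so fewer dividing cells and less of these transcripts in each cell would read the same.

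A further element, the cell cycle genes homology region (CHR, searched as TTTGAA on either strand), is bound by complexes that restrict such genes to dividing cells. It was found in 9 of 27 mitosis promoters (33.3%) and 4 of 28 replication promoters (14.3%), against 1716 of all 14368 (11.9%). Interferon response promoters held it in 7 of 25 (28.0%), and it overlapped the ISRE in 5 promoters of all genes. The 3 mitosis genes with the largest falls past the threshold whose promoters hold a CHR are shown in the same way, with the CHR in capitals.
Kif2c (chr4:117178773-117179022, minus strand): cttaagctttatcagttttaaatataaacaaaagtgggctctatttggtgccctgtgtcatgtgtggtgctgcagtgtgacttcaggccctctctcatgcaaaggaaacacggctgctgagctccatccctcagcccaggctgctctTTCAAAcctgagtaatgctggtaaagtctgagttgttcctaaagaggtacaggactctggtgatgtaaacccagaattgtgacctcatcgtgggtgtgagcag
Top2a (chr11:99024190-99024439, minus strand): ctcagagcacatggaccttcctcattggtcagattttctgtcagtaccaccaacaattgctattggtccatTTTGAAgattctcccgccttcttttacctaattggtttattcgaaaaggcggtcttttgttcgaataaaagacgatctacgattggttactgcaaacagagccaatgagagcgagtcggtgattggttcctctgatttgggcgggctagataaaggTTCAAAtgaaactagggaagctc
Kif11 (chr19:37376132-37376381, plus strand): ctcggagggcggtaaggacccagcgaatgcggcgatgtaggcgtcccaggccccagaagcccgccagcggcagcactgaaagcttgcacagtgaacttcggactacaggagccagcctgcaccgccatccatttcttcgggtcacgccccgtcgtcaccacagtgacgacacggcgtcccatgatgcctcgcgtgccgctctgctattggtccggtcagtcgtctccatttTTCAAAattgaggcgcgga

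Kif2c, a kinesin that depolymerises spindle microtubules, lay at 5.47, 7.10 and 7.28 log2 in Fz4-/-, against 8.69, 8.63 and 8.60 in wild type. It fell by 2.02 ± 0.44 (4.06-fold, adjusted p = 0.00923), with differences of -3.22, -1.52 and -1.33 within replicate numbers. Hmmr, a spindle protein, fell by 1.85 ± 0.43. Ube2c, the ubiquitin-conjugating enzyme of the anaphase-promoting complex, lay at 8.28, 10.31 and 10.29 in Fz4-/-, against 11.28, 11.67 and 11.73 in wild type. The groups did not overlap, and Fz4-/- replicate 1 was the lowest array, but the difference of -1.93 ± 0.62 did not pass (adjusted p = 0.0568).

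Among replication genes, Rrm2, a subunit of ribonucleotide reductase, lay at 8.65, 10.14 and 10.07 in Fz4-/-, against 11.40, 11.59 and 11.59 in wild type. It fell by 1.91 ± 0.41 (3.76-fold, adjusted p = 0.00843). Mcm5, a subunit of the replicative helicase, and Gins1, which joins that helicase, each fell by 1.33 ± 0.30. Pcna, the sliding clamp of DNA polymerases, differed by -0.63 ± 0.20 and did not pass (adjusted p = 0.0528). DNA repair genes gave 12 falls and 6 not past of 18 (median -1.05), led by the Fanconi anaemia genes Fanca (-1.65 ± 0.22) and Fanci (-1.50 ± 0.22).

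How many of these genes passed depended on the treatment of replicate 1. The mean level of the mitosis list was 6.71, 8.19 and 8.19 in Fz4-/-, against 9.19, 9.26 and 9.29 in wild type, and its median difference within replicate numbers was -2.55, -1.11 and -1.19. For replication genes these medians were -1.57, -0.64 and -0.73. With the replicate number as a block, 32 mitosis genes and 29 replication genes fell. The counts were 9 and 8 without Fz4-/- replicate 1, at median differences of -1.12 and -0.65. They were 12 and 13 without wild type replicate 1, 8 and 7 without wild type replicate 2, and 8 and 9 without wild type replicate 3. Without replicate 1 of every group they were 32 and 31, and with replicates 2 and 3 averaged 0 genes of either list passed, although 31 mitosis genes and 25 replication genes had an unadjusted p below 0.05 in limma. Of the repair genes, 6 fell without replicate 1 of either genotype and 7 without wild type replicate 2 or 3, while 3 fell with replicates 2 and 3 averaged and 15 under the block.

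Of 25 regulators of the step into S phase, 5 fell, 0 rose and 20 did not pass (median -0.52), where 15.7% of all genes passed. Under the block 15 fell and 1 rose, without replicate 1 of every group 16 fell and 2 rose, and with replicates 2 and 3 averaged 1 fell. Without Fz4-/- replicate 2 or 3, 3 fell. Cdkn2d (-1.26 ± 0.18) and Cdkn1c (-1.21 ± 0.22), both inhibitors of cyclin-dependent kinases, were among the falls. The cyclins Ccne2 and Ccnd2 and the kinase Cdk2 were called lower as well. Ccne2 lost its call without any single Matrigel array, at -1.71 to -1.02, and without some gelatin arrays. Ccnd2 lost it without Fz4-/- Matrigel replicate 2 or 3, at -0.62. With probe sets without cross-hybridization suffixes Cdk2 stood at 0.03. Ccnd1, which encodes cyclin D1, had means of 12.72 ± 0.16 in Fz4-/- and 12.45 ± 0.22 in wild type (SD, n = 3) and did not pass. Cdkn1a, the p53-induced inhibitor, differed by 0.00 ± 0.11.

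**Figure D3:**
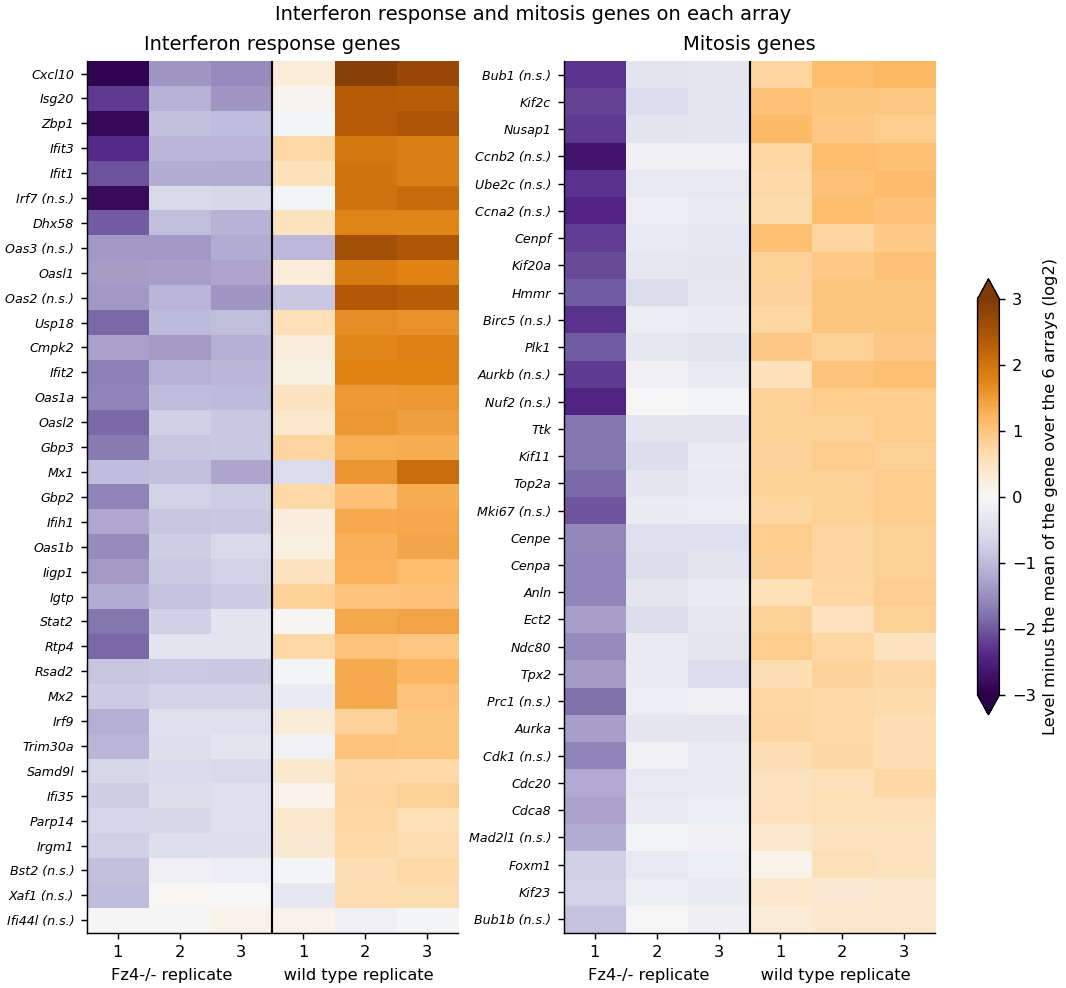
Level of each gene on each Matrigel array minus the mean of that gene over the 6 arrays (colour, log2) for the 35 interferon response genes (left panel) and the 32 mitosis genes (right panel), with the 3 Fz4-/- arrays left of the 3 wild type arrays. Genes marked n.s. did not pass an adjusted p below 0.05, replicate 1 is the lowest array of both genotypes for 30 interferon genes, and Fz4-/- replicate 1 is the lowest array for all 32 mitosis genes.

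The other parts of the Norrin and Wnt receptor complex showed smaller differences than Fzd4. Of 23 measured receptor genes, 6 rose, 4 fell and 13 did not pass, with a median of 0.03, where 15.7% of all genes passed. Reck, a membrane protein that presents Wnt7 ligands, lay at 6.48, 6.02 and 6.18 log2 in Fz4-/-, against 7.33, 7.09 and 7.35 in wild type, and fell by 1.03 ± 0.11 (adjusted p = 0.000109). Tspan12, the tetraspanin partner of frizzled-4, lay at 6.52, 5.90 and 5.83 in Fz4-/-, against 5.47, 5.01 and 4.90 in wild type, and rose by 0.95 ± 0.20. Neither gene's groups overlapped. Fzd8 fell by 0.76 ± 0.09, although its other probe set differed by 0.15. The count of 10 came to 5 or 6 without wild type replicate 1, 2 or 3 or without Fz4-/- replicate 2 or 3, where Lrp5 (0.63 ± 0.17) lost its call at values of 0.50 to 0.68. Adgra2, the partner of Reck, stood at -0.04 ± 0.12.

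Among 23 targets of beta-catenin, 1 rose, 2 fell and 20 did not pass, a share near the 15.7% of all genes, with a median of 0.02, and under the block 3 rose and 4 fell. Axin2 lay at 4.53, 4.63 and 4.61 in Fz4-/-, against 4.90, 4.53 and 4.37 in wild type, and Lef1 at 3.29, 3.56 and 3.31 in Fz4-/-, against 3.46, 3.39 and 3.26 in wild type. Both genes overlapped between genotypes, with differences of -0.01 ± 0.12 for Axin2 and 0.02 ± 0.09 for Lef1, and the mean of Lef1 was low in both genotypes. Ccn4, a matricellular protein, lay at 5.77, 5.67 and 5.66 in Fz4-/-, against 7.28, 8.35 and 8.61 in wild type, and fell by 2.38 ± 0.25. Gja1, which encodes the gap junction protein connexin 43, rose by 0.59 ± 0.13. Without wild type replicate 1 the list gave 2 rises and 4 falls.

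Among 13 secreted Wnt antagonists, 2 fell and 11 did not pass, a share near the 15.7% of all genes. Frzb lay at 6.25, 5.79 and 6.24 in Fz4-/-, against 8.91, 8.47 and 8.75 in wild type, and fell by 2.62 ± 0.23 (6.13-fold, adjusted p = 1.58e-05) with no overlap. Dkk2, an antagonist of Lrp co-receptors, fell by 1.11 ± 0.14 to a low mean of 2.99. Of the 3 SoxF factors only Sox17 passed. Sox18 differed by 0.25 ± 0.23 and Sox7 by 0.42 ± 0.29, both at levels above 9 in every array, and under the block 1 of these also passed as a rise.

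The falls among Hox genes lay mostly in the Hoxd cluster, whose factors set position along the body axis. Of 33 Hox genes measured, 6 fell and 27 did not pass, where 15.7% of all genes passed, and 11 were low in both genotypes. Besides Hoxd8 and Hoxd9, Hoxd1 (-1.50 ± 0.22), Hoxd3 (-1.08 ± 0.12) and Hoxd10 (-0.92 ± 0.14) fell, together with Hoxb4 of another cluster (-0.89 ± 0.16). Hoxd9 lay at 5.2, 4.77 and 4.78 in Fz4-/-, against 9.38, 8.74 and 8.78 in wild type, while Hoxd1 lay at 3.09, 2.80 and 2.61 in Fz4-/-, against 4.89, 3.98 and 4.15 in wild type. Hoxd11 (0.10 ± 0.09), Hoxd12 (0.04 ± 0.11) and Hoxd13 (-0.10 ± 0.18), chosen after their values were seen, did not pass. Hoxd11 and Hoxd12 were low in both genotypes, where a fall would be hard to see. The list's count of 6 was the same without any single Matrigel array, with replicates 2 and 3 averaged and under the block.

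Arterial and venous genes differed in opposite directions. Of 19 arterial genes, 10 fell (against 8.77% of all genes), 1 rose and 8 did not pass, with a median of -0.60. Sox17 was the largest. Nrp1, a co-receptor of VEGF and semaphorins, lay at 7.76, 7.09 and 6.72 log2 in Fz4-/-, against 8.65, 8.60 and 8.76 in wild type, and fell by 1.48 ± 0.21 (2.78-fold, adjusted p = 0.000737). Unc5b, a netrin receptor of arteries and tip cells, lay at 8.22, 7.44 and 7.29 in Fz4-/-, against 8.82, 9.23 and 9.08 in wild type, and fell by 1.39 ± 0.20. Neither overlapped. Efnb2, the ephrin ligand that marks arteries, fell by 1.22 ± 0.17 and the kinase Bmx by 1.32 ± 0.23. Jag1, a Notch ligand, was the exception at 1.01 ± 0.25, and its call was lost without replicate 1 of Fz4-/- (0.76) or of wild type (0.84). With replicates 2 and 3 averaged, 3 arterial genes fell.

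Of 12 venous genes, 6 rose (against 6.91% of all genes), 1 fell and 5 did not pass, with a median of 0.56. Nrp2, a co-receptor for VEGF-C, lay at 11.48, 11.25 and 11.37 in Fz4-/-, against 8.30, 9.10 and 9.27 in wild type, and rose by 2.47 ± 0.26 (5.56-fold, adjusted p = 7.14e-05). Nr2f2, which encodes the venous factor COUP-TFII, lay at 10.01, 10.03 and 10.23 in Fz4-/-, against 8.69, 9.12 and 9.26 in wild type, and rose by 1.07 ± 0.13. Selp is on this list too. The angiopoietin receptor Tek (0.84 ± 0.12) and Emcn, a mucin-like protein of veins and capillaries (0.58 ± 0.12), rose. Foxf2, a forkhead factor, rose by 1.89 ± 0.14, while its other probe set differed by 0.04. Ephb4, the venous receptor of Efnb2, stood at 0.54 ± 0.18 and did not pass (adjusted p = 0.0701). Vcam1 was the exception at -0.78 ± 0.23, and its call was lost, at values of -0.88 to -0.56, without Matrigel replicate 1 or 3 of Fz4-/-, Matrigel replicate 2 or 3 of wild type, gelatin replicate 2 or 3 of Fz4-/- or gelatin replicate 3 of wild type.

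Among 9 lymphatic genes, 3 rose and 6 did not pass, where 6.91% of all genes rose. Lyve1, a hyaluronan receptor, lay at 11.67, 11.98 and 11.69 in Fz4-/-, against 8.10, 9.64 and 9.54 in wild type, and rose by 2.69 ± 0.44. Nr2f1 rose by 1.05 ± 0.15, and Thy1 is counted here and among fibroblast markers. A shorter list of lymphatic cell markers drawn up for this comparison held Lyve1, Flt4 and Pdpn but neither Nr2f1 nor Thy1. The lymphatic receptor Flt4 (0.21 ± 0.12) and Pdpn (-0.08 ± 0.17) did not pass. Between 5 and 7 venous genes and 3 lymphatic genes rose under each alternative normalization, block or left-out Matrigel array.

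Of 28 genes shared by all endothelium, 6 rose, 0 fell and 22 did not pass (median 0.21), where 15.7% of all genes passed. The count of rises was 11 when arrays were centred on their medians, 10 under the block (with 1 fall), 4 without wild type replicate 2 or 3 and 1 with replicates 2 and 3 averaged. Robo4 (0.65 ± 0.14) and Eng, a co-receptor of BMP9 (0.41 ± 0.09), rose, and Cdh5 stood at 0.02 ± 0.09. Barrier genes gave 2 rises, 1 fall and 18 not past of 21, a share near the 15.7% of all genes, with 4 rises and 3 falls under the block. Plvap, the diaphragm protein of fenestrae that is absent from a mature blood-retina barrier, lay at 13.08, 12.11 and 12 in Fz4-/-, against 11.08, 9.54 and 9.65 in wild type. It rose by 2.31 ± 0.53 (4.96-fold, adjusted p = 0.0122) with no overlap, and its call was lost without Fz4-/- replicate 1 (1.97), wild type replicate 2 (2.03) or wild type replicate 3 (2.09). The taurine transporter Slc6a6 rose by 1.26 ± 0.10, and Slc7a5, the large neutral amino acid transporter of the barrier, fell by 1.16 ± 0.25. Among 18 junction genes, 1 rose and 3 fell, with 4 rises and 5 falls under the block. The fall of Jam3 (-1.21 ± 0.11) was not seen in its other probe set (0.05).

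Notch genes gave 3 rises, 4 falls and 9 not past of 16, where 15.7% of all genes passed. Notch3 lay at 4.99, 5.35 and 5.19 in Fz4-/-, against 7.15, 7.48 and 7.36 in wild type, and fell by 2.15 ± 0.19, while Lfng, which modifies Notch receptors, rose by 1.2 ± 0.23. The list gave 2 rises and 2 falls without Fz4-/- replicate 2 or 3 or wild type replicate 3. Of 28 BMP and TGF-beta genes, 5 rose and 4 fell. Bmp2, a BMP ligand, lay at 8.49, 7.63 and 7.58 in Fz4-/-, against 10.09, 10.20 and 10.06 in wild type, and fell by 2.22 ± 0.21. Ltbp2, a latent TGF-beta binding protein of matrix (-2.49 ± 0.40), fell, whereas the TGF-beta induced matrix protein Tgfbi (2.35 ± 0.13) and Id2, a target of BMP signalling (1.41 ± 0.16), rose.

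Contacts with the matrix differed gene by gene. Of 27 basement membrane and integrin genes, 7 rose, 4 fell and 16 did not pass (median -0.01), where 15.7% of all genes passed. Lama4, the laminin alpha chain of vessel walls, lay at 8.31, 7.39 and 7.5 in Fz4-/-, against 10.26, 9.75 and 9.65 in wild type, and fell by 2.15 ± 0.34. Itga1, the alpha chain of a collagen receptor, fell by 1.57 ± 0.22, while Itgb4, a laminin receptor chain (1.67 ± 0.27), Itga4, a fibronectin and Vcam1 receptor chain (1.58 ± 0.15), and Itgb3 (0.97 ± 0.16) rose. Sparcl1, a matricellular protein, lay at 4.92, 4.82 and 4.74 in Fz4-/-, against 8.39, 8.44 and 8.38 in wild type, and fell by 3.58 ± 0.10 (adjusted p = 2.15e-09). The groups were tight and far apart. Among 30 fibrillar matrix genes, 3 rose and 6 fell, with Thbs2 at 2.39 ± 0.16 and Col8a1 at -2.12 ± 0.25. Matrix proteases and their inhibitors gave 8 rises, 4 falls and 12 not past of 24, with Adamts1 at 1.64 ± 0.24 and Mmp3 at -1.75 ± 0.19. That count came to 7 without wild type replicate 2 and 6 without wild type replicate 3.

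YAP and TAZ targets, Ankrd1 included, gave 2 rises, 2 falls and 15 not past of 19 (median -0.08), where 15.7% of all genes passed. The widely used target Ccn2 stood at 0.52 ± 0.34. Among 23 actin and SRF targets, 3 rose and 4 fell, with the cytoskeletal adaptor Fhl2 (-2.13 ± 0.12) and Tpm2, a tropomyosin (-2.16 ± 0.26), lower and Zyx, a focal adhesion protein (0.57 ± 0.10), higher. The Tpm2 call was lost at -0.13 with a probe set without a cross-hybridization suffix. Of 15 kallikrein and serpin genes, 6 rose, 0 fell and 9 did not pass. Besides Klk8 these were led by the complement inhibitor Serping1 (3.13 ± 0.67) and the intracellular protease inhibitors Serpinb6b (2.82 ± 0.46) and Serpinb1a (2.27 ± 0.28). Serping1 lay at 6.2, 8.58 and 8.49 in Fz4-/-, against 4.64, 4.54 and 4.70 in wild type, so Fz4-/- replicate 1 was the lowest of its group but above all wild type arrays. Of 23 cholesterol and fatty acid synthesis genes, 5 fell, led by the desaturase Scd1 (-2.33 ± 0.19), 0 rose and 18 did not pass. This count came to 2 without wild type replicate 2 or 3 and to 3 without Fz4-/- replicate 2 or 3. 

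**Figure D4:**
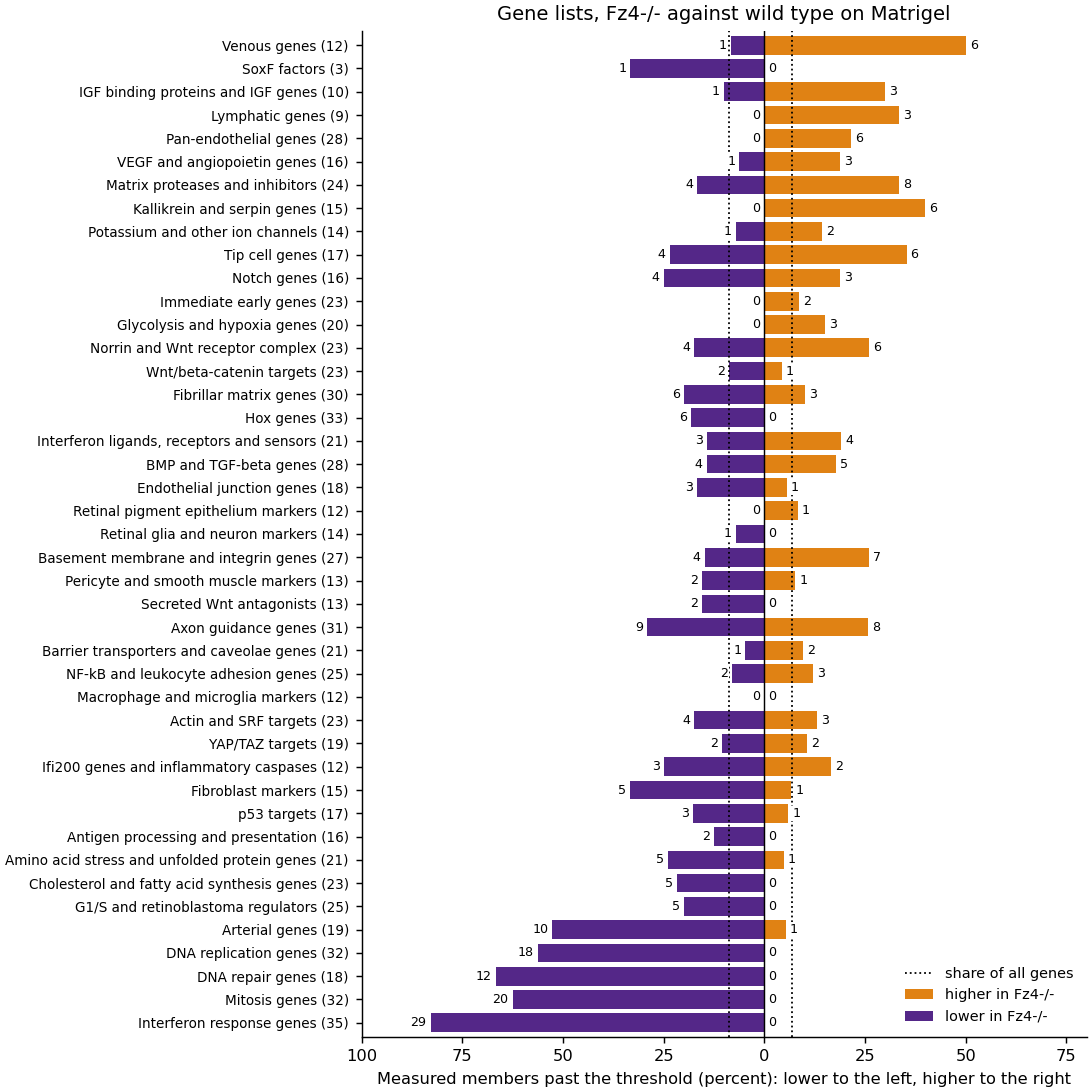
Share of the measured members of 43 gene lists past an adjusted p below 0.05 (horizontal axis, percent), with members lower in Fz4-/- to the left and higher to the right, ordered by median difference. Numbers beside the list names are measured members, numbers at the bars are genes, and dotted lines mark the shares of all genes (8.77% lower and 6.91% higher). The interferon response list has 29 of 35 members lower and the venous list 6 of 12 higher.

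Markers of cells that could accompany retinal endothelium were read beside these results. Of 15 fibroblast markers, 5 fell, 1 rose (Thy1) and 9 did not pass, where 15.7% of all genes passed. Mean levels of the fibroblast list were 4.17, 4.36 and 4.38 log2 in Fz4-/-, against 4.36, 4.73 and 4.79 in wild type. Twist1, a mesenchymal transcription factor, lay at 4.04, 4.60 and 4.89 in Fz4-/-, against 7.11, 7.37 and 7.66 in wild type, and fell by 2.87 ± 0.29. Pdgfra (-1.79 ± 0.26), Prrx1 (-1.48 ± 0.22) and Fbln1 (-2.79 ± 0.30) also fell. The fall of Fbln1 was lost at -0.08 with a probe set without a cross-hybridization suffix, and with probe sets averaged Pdgfra stood at -0.89 and Prrx1 at -0.80. The remaining fall was the collagen Col3a1, at -1.58 to -0.23 over the alternatives. Its call was lost without any single Fz4-/- Matrigel array, wild type Matrigel replicate 2 or 3, or Fz4-/- gelatin replicate 2 or 3. The collagens Col1a1 (3.96 ± 0.14 in Fz4-/- and 4.22 ± 0.08 in wild type, SD, n = 3) and Col1a2 (4.13 ± 0.09 and 4.26 ± 0.14) were below the array medians in both lines and did not pass. Of 13 pericyte and smooth muscle markers, 2 fell and 1 rose. Anpep, a surface peptidase of pericytes, lay at 4.08, 4.13 and 4.08 in Fz4-/-, against 6.38, 8.43 and 8.32 in wild type, and fell by 3.61 ± 0.66. Notch3 was the other fall and Tagln, an actin-binding protein, the rise (0.94 ± 0.09). With arrays centred on their medians 3 of these markers rose and 2 fell. List mean levels were 5.03 to 5.08 in Fz4-/-, against 5.27 to 5.38 in wild type. Mean levels were thus lower in Fz4-/- for both lists, but the members were split. The median difference was -0.12 for fibroblast markers, with 7 members higher and 8 lower. It was -0.01 for pericyte and smooth muscle markers, with 6 higher and 7 lower. The part of such cells in the matrix and Notch3 results was not tested. Of 12 macrophage and microglia markers, 0 passed in limma and 0 had an unadjusted p below 0.05, while 1 fell under the block. The retinal glia and neuron list had 1 fall (Tubb3, -1.40 ± 0.19) of 14 genes and the pigment epithelium list 1 rise (Best1, 0.90 ± 0.15) of 12, with 1 further fall without Fz4-/- replicate 1.

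The fit over both substrates asked which genotype differences depended on Matrigel. Only 3 of 18193 genes passed (0.0165%). An unadjusted p below 0.05 in limma was reached by 830, a smaller share than the 0.05 that would fall there without any substrate dependence. This share depended on the treatment of replicate 1. It was above 0.05 with the replicate number as a block (1346 genes) and without replicate 1 of every group (2399 genes). With the replicate number as a block 8 passed, and 5 did without Fz4-/- Matrigel replicate 1 or wild type gelatin replicate 3. Kcnn4, a calcium-activated potassium channel of endothelium, lay at 7.55, 7.73 and 7.57 log2 in Fz4-/- and 5.64, 5.39 and 5.66 in wild type on Matrigel. On gelatin it lay at 6.49, 6.22 and 6.36 in Fz4-/- and 5.75, 5.81 and 5.86 in wild type. The genotype difference was 2.05 ± 0.10 on Matrigel and 0.55 ± 0.10 on gelatin, so it was larger on Matrigel by 1.5 ± 0.14 (adjusted p = 0.00458).

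Gadd45a, a stress-induced gene of growth arrest and DNA repair, lay at 6.71, 6.67 and 6.90 in Fz4-/- and 7.99, 8.01 and 8.19 in wild type on Matrigel. On gelatin it lay at 7.74, 7.61 and 7.61 in Fz4-/- and 7.61, 7.79 and 7.69 in wild type, where the groups overlapped. Its genotype difference was -1.30 ± 0.09 on Matrigel and -0.04 ± 0.09 on gelatin, a change of -1.26 ± 0.13 (adjusted p = 0.00702). Tbx18, a T-box factor known from mural and mesenchymal cells, was higher in Fz4-/- on both substrates, by 2.83 ± 0.11 on Matrigel and 4.01 ± 0.11 on gelatin. The difference of -1.18 ± 0.15 passed (adjusted p = 0.0359), but was lost without any 1 array other than Fz4-/- Matrigel replicate 1 or wild type gelatin replicate 3, at values of -1.21 to -1.11. Among the leading genes, Hoxd8 differed by -6.62 on Matrigel and -6.33 on gelatin, Sox17 by -4.52 and -4.82, and Fam167b by 6.21 and 6.00. Others were further apart, with Evi2a at -3.78 on Matrigel and -2.55 on gelatin, Klk8 at 5.77 and 4.32, Selp at 4.33 and 3.30, Slc15a2 at 3.57 and 2.46, and Hoxd3os1 at -6.35 and -5.33. The change between substrates did not pass for these genes, with adjusted p = 0.108 in limma for Evi2a.

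**Figure D5:**
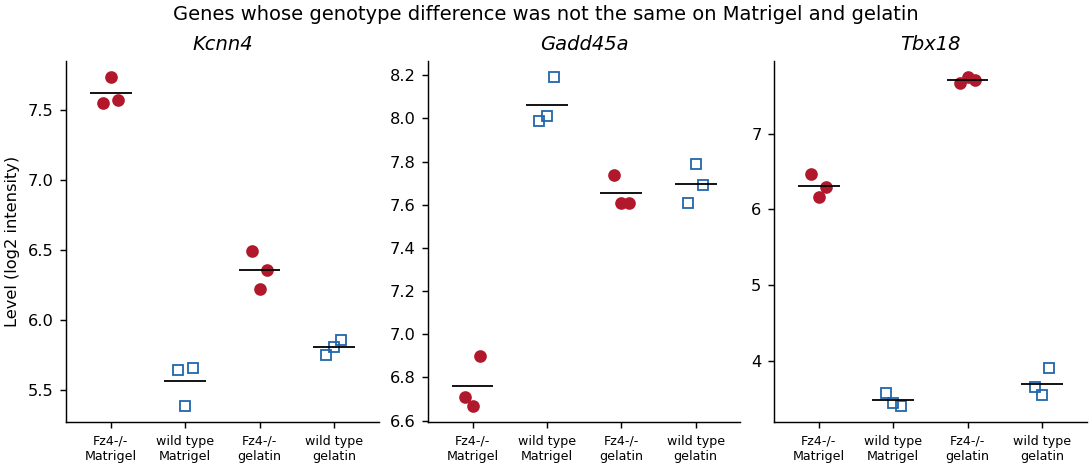
Log2 level of Kcnn4, Gadd45a and Tbx18 on each array (points) and the group mean (lines, n = 3) in Fz4-/- and wild type cells on Matrigel and on gelatin. The Gadd45a groups are apart on Matrigel (-1.30) and overlap on gelatin (-0.04), and Kcnn4 differs by 2.05 on Matrigel and 0.55 on gelatin.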

How the data were processed

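RNA from mouse retinal endothelial cell lines was hybridised to Affymetrix whole-genome mouse arrays. The deposited log2 values were made by the authors with RMA, per the submitters' processing notes, which fits background-corrected and quantile-normalised probe intensities; which arrays were normalised together is not given in the sources used here. Of 45101 probe sets, 34945 have 1 gene symbol in the platform annotation (34741 matched to RefSeq by gene ID), 932 several and 9160 none, and the probe set with the highest mean stands for each of 18193 genes. Differences were fitted with limma 3.58.1 (R 4.3.3, lmFit and eBayes) on the 12 arrays of cells grown alone, a mean per group, with Benjamini-Hochberg adjustment over all genes at 0.05. Only 3 arrays per group limit the precision, and an exact permutation test of 3 against 3 could not go below 0.1. The script was tested on simulated data.

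Named genes are Fzd4 and its nearest measured neighbours, the 15 largest rises and falls whose groups do not overlap, up to 6 called members of each of 44 gene lists by size, up to 3 members not past the threshold with the highest means, genes past the threshold in the test between substrates, and fixed markers. Clone-like symbols were left unnamed. The comparison, its genes, lists and alternatives were chosen with earlier results of these data known. Same-numbered replicates deviated together from their group means (correlations of 0.40, 0.29 and 0.25 over genes on Matrigel, 0.40, 0.27 and 0.24 on gelatin), and the numbers in the titles were treated as pairs in a blocked alternative. Replicates 2 and 3 correlated as much with each other's number (0.27 on Matrigel and 0.28 on gelatin), so these numbers are not told apart. The other alternatives were other normalizations, probe set rules, a filter on dim genes, other arrays in the fit, a robust variance, a 2-fold minimum, replicates 2 and 3 averaged, and arrays left out. Promoters were taken from RefSeq, and Python 3.11.15 was used for descriptions. Co-culture arrays entered the choice of probe set, which used the mean over all 24 arrays. Among the fits they entered only the one over all 24 arrays.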

Additional observations from a re-analysis of the deposited data

Results flagged for a closer look

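For 3 genes the genotype difference on Matrigel differed from that on gelatin by a test of the difference itself in limma. Kcnn4 was higher in Fz4-/- by 2.05 on Matrigel and 0.55 on gelatin, a change of 1.5 (adjusted p = 0.00458, between 5.63e-05 and 0.647 over the alternatives). Gadd45a was lower in Fz4-/- by -1.30 on Matrigel and -0.04 on gelatin, a change of -1.26 (adjusted p = 0.00702, between 5.63e-05 and 0.647). Tbx18 was higher in Fz4-/- by 2.83 on Matrigel and 4.01 on gelatin, a change of -1.18 (adjusted p = 0.0359, between 0.00814 and 0.89). Per the labels, Matrigel cells were also held in low serum and replated, so the substrate cannot be told apart from those steps.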

How the results depend on the processing

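The 2854 genes past the threshold on Matrigel became 4379 with the replicate block and 791 with a 2-fold minimum, 4857 when replicate 1 of all groups was left out and 736 when replicates 2 and 3 were averaged, and lay between 1903 and 3191 without each array in turn. The 3 genes whose difference depended on the substrate became 16 with all 24 arrays, 8 with the replicate block and 5 when the probe sets of each gene were averaged. They became 61 when replicate 1 of all groups was left out and 2 to 5 without each array in turn. With replicates 2 and 3 averaged they became 0, and 340 had an unadjusted p below 0.05 in limma, again a share below 0.05. The share was above 0.05 with the replicate block (1346 genes) and when replicate 1 of all groups was left out (2399 genes). Only the 6 Matrigel arrays could give no such value. Cdk2 changed sign to 0.03 (from a called -0.52) with probe sets without cross-hybridization suffixes, and Notch4, not called at 0.09, passed at -0.46 when replicate 1 of all groups was left out, with a range of -0.46 to 0.35 over the fits with arrays left out; the cause was not tested. Of 191 named genes past the threshold, 191 passed under the block, 179 after median centring, 96 when replicates 2 and 3 were averaged, and 79 kept direction and call in every alternative, while 54 lost the call without some 1 array. With the probe sets of a gene averaged, Thbs2 stood at 1.39, Slc6a6 at 0.79 and Lfng at 0.65, and with probe sets without suffixes Notch3 stood at -1.40. With 3 arrays per genotype, dim genes and small differences are the least certain, and the fits do not separate the genotypes from the lines that carry them.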

Other observations

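Genes of axon guidance, many of which also steer endothelial cells, differed in both directions. Of 31 measured, 8 rose and 9 fell in Fz4-/-, with a median of -0.02, where 15.7% of all genes passed. Epha4, an ephrin receptor, fell by 2.18 and the arterial semaphorin Sema3g by 1.25, whereas Sema3a, a repulsive semaphorin that binds neuropilin-1, rose by 1.46. Of 10 genes of the insulin-like growth factor system, 3 rose and 1 fell, beside the same 15.7% of all genes. Igfbp3, a binding protein of these growth factors, lay at 4.92, 4.71 and 5.5 log2 in Fz4-/-, against 7.74, 7.94 and 8.2 in wild type, and fell by 2.92. Igfbp7 lay at 11.75, 11.73 and 11.72 in Fz4-/-, against 10.2, 10.22 and 10.09 in wild type, and rose by 1.56, and the groups of both genes were apart.

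Ion channels gave 2 rises and 1 fall among 14 measured, where 15.7% of all genes passed. Trpv4, a calcium-permeable channel that opens to osmotic and mechanical stimuli, lay at 8.96, 9.23 and 9.16 in Fz4-/-, against 5.95, 6.79 and 6.66 in wild type, and rose by 2.65. Ano1, a calcium-activated chloride channel, lay at 8.47, 8.49 and 8.44 in Fz4-/-, against 10.62, 11.02 and 10.93 in wild type, and fell by 2.39. Neither gene's groups overlapped.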
